A study of Rattus norvegicus with 6 samples.

Results

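The 10 BCL-2 family genes for survival and death described here were taken by name from the deposited tables: Bcl2, Bcl2l1 (BCL-XL), Mcl1 and Bcl2a1 (A1) as anti-apoptotic members, Bcl2l11 (BIM), Bbc3 (PUMA), Pmaip1 (NOXA) and Bid as BH3-only members, and Bax and Bak1 as effectors. All 10 of 10 were found among the 23139 genes listed, and all 10 passed the filter on low counts, which left 11977 genes.

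The BCL-2 family decides, at the outer membrane of the mitochondrion, whether a stressed cell releases cytochrome c and activates its caspases. Anti-apoptotic members (BCL-2, BCL-XL, MCL-1 and A1) hold the pore-forming effectors BAX and BAK in check, and BH3-only members (BIM, PUMA, NOXA and BID) report stress by binding to the anti-apoptotic members or to the effectors. NOXA binds mainly MCL-1 and A1, whereas BIM and PUMA bind all anti-apoptotic members. In microglia and other myeloid cells, activation by LPS is known to raise survival genes that NF-κB controls, A1 among them.

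The 6 libraries hold captured mRNA of primary microglia from cortices of Wistar rats at postnatal day 1, which were shaken off mixed cultures after 10 days and purified with magnetic beads against CD11b/c. Both groups received LPS (lipopolysaccharide, a component of the bacterial outer membrane) at 100 ng/mL. The LPS group (n = 3) received the solvent DMSO with it, and the LPS/siponimod group (n = 3) received siponimod, a modulator of sphingosine 1-phosphate receptors, at 50 µM. Cells without LPS were not analysed here, and each difference is that of siponimod on top of LPS. The time between stimulation and RNA harvest is not clearly given for these libraries. Total counts ranged from 38080379 to 46643859 per library, and a single count corresponded to between 0.0215 and 0.027 CPM (counts scaled to a common library size with edgeR's TMM factors). In bulk RNA, fewer cells of a type and less RNA per cell cannot be told apart, and RNA levels do not report the protein.

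Of 10 microglia markers checked against the label, all were detected, but 3 were called lower with siponimod and none higher. Itgam, which encodes CD11b, lay between 946 and 1048 CPM with LPS and between 512 and 567 CPM with LPS/siponimod (log2 FC -0.87, quasi-likelihood adjusted p = 0.0112), and Aif1, which encodes Iba1, was lower too (log2 FC -1.88, quasi-likelihood adjusted p = 0.0212). Markers of resting microglia were low throughout. Cx3cr1 had a mean of 2.68 CPM with LPS and 0.211 CPM with LPS/siponimod (log2 FC -3.65, quasi-likelihood adjusted p = 0.0392), and P2ry12, which was not called, had 15.8, 15.8 and 1.16 CPM against 0.387, 2.37 and 0.317 CPM. Ptprc, Cd68 and Tyrobp, which other myeloid cells also express, had log2 FCs of -0.019, 0.0022 and -0.24 and were not called. LPS replicate 3 stood apart from the other libraries of its group. Its log2 CPM correlated with those of LPS replicates 1 and 2 at 0.935 and 0.945 across genes, against 0.983 between these 2. The summed level of 7 oligodendrocyte lineage markers was 36.0 CPM in LPS replicate 3 and 5.34 and 5.37 CPM in LPS replicates 1 and 2. In LPS/siponimod replicates 1, 2 and 3 it was 11.4, 10.3 and 22.6 CPM. In LPS replicate 3 the sum came mainly from Olig1 (13.9 CPM), Pdgfra (7.64 CPM) and Olig2 (6.46 CPM), each at most 0.135 CPM in the other LPS libraries, whereas Mbp, the most abundant over all libraries, had 4.02, 4.18 and 2.26 CPM in LPS replicates 1, 2 and 3 and was called higher with siponimod (log2 FC 1.74, quasi-likelihood adjusted p = 0.0172). The sum of 6 neuron markers, led by Tubb3, was 12.1 CPM in LPS replicate 3, against 1.67 and 1.06 CPM in the other LPS libraries and 6.39, 9.19 and 17.1 CPM in LPS/siponimod replicates 1, 2 and 3. The 10 microglia markers, led by Csf1r, summed to 7740, 6572 and 4552 CPM in LPS replicates 1 to 3, compared with 3961, 4758 and 3146 CPM in LPS/siponimod replicates 1 to 3. Of the other lists, 6 astrocyte markers, led by Slc1a3, summed to between 21.0 and 42.5 CPM in LPS libraries and between 26.8 and 57.6 CPM in LPS/siponimod libraries. Among LPS libraries, replicate 3 had the highest values of Gfap, Slc1a2, Gja1 and Aqp4 and the lowest of Slc1a3 and Aldh1l1. Gfap reached 2.37 CPM and Slc1a2 2.21 CPM there, against at most 0.135 CPM in the other LPS libraries. The sum of 6 fibroblast and vascular markers, led by Pecam1, was highest in LPS replicate 2, at 108 CPM, and between 14.7 and 41.8 CPM in the other libraries, and Rgs5 was at 0 in all of them. Within the lists of other cell types Dcn, a fibroblast marker, and Snap25, a neuron marker, were called higher with siponimod, Dcn with at most 0.108 CPM in an LPS library and 9.81, 1.10 and 4.34 CPM in LPS/siponimod replicates 1, 2 and 3, and Snap25 with at most 0.0269 CPM against 2.02, 3.43 and 1.98 CPM. The other fibroblast markers did not move with Dcn, since Col1a1, Col3a1 and Col1a2 had log2 FCs of -0.89, -0.67 and 0.26 and were not called, and the median of the 5 tested fibroblast and vascular markers was -0.67. Of the other neuron markers, Tubb3 was not called (log2 FC 1.28), and Map2, Dcx, Syt1 and Rbfox3 did not pass the filter. With siponimod the mean fell from 1.48 to 0.95 CPM for Map2 and from 0.332 to 0.0894 CPM for Dcx. It fell from 0.0984 to 0.0244 CPM for Syt1 and rose from 0.0359 to 0.0894 CPM for Rbfox3. The sum of 7 neutrophil and lymphocyte markers, led by S100a8, was at most 2.88 CPM, and 2 of them, Mpo and Cd3e, were at 0 in every library. S100a8 was called lower with siponimod (log2 FC -3.57, quasi-likelihood adjusted p = 0.0219). LPS replicate 3 also held the lowest values of Bcl2l11 and Bbc3 and the highest LPS values of Bcl2a1 and Bcl2l1. The part of these markers in the results below was not tested, and member values that turn on LPS replicate 3 are given with and without it.

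With siponimod, the BH3-only gene Pmaip1 rose 25.8-fold in the presence of LPS, while the anti-apoptotic genes Mcl1 and Bcl2a1, whose products NOXA binds, did not pass the test. Pmaip1 is induced by the stress factors ATF4 and CHOP, among others. It held 494, 74 and 90 counts in LPS replicates 1, 2 and 3 and 7245, 5142 and 7582 in LPS/siponimod replicates 1, 2 and 3. After normalization these were 13.3, 1.92 and 2.42 CPM and 156, 115.2 and 185 CPM, in the same order (5.89 ± 6.45 against 152 ± 35.02 CPM, SD, n = 3 each). The lowest LPS/siponimod library was far above the highest LPS library, which was replicate 1. The log2 fold change (FC) was 4.69 with a standard error of 0.85 (25.8-fold, 95% interval of the log2 FC from 2.64 to 6.73, adjusted p = 0.014, edgeR quasi-likelihood test). Its size rested in part on LPS replicate 1, without which the log2 FC was 6.15. Within same-numbered libraries the difference was 3.54, 5.87 and 6.23 on the log2 scale. By size of log2 FC, Pmaip1 ranked 88 of the 11977 genes tested, and by p-value 735 of the 5839 genes with a positive log2 FC. The adjusted p was 0.0532 without LPS replicate 2 and 0.0564 without LPS/siponimod replicate 1, and it ranged from 0.00945 to 0.0477 in the other 4 fits that left out 1 library. Across the 6 libraries, the genes whose log2 CPM was most like that of Pmaip1 were Gigyf1 (Pearson r 0.996), Ahnak (0.996) and Ano6 (0.995). The 6 points fall into the 2 groups, so that any gene that differs strongly between them has a high r.

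The promoter of Pmaip1 is shown because it is the member that was called, and that of Mcl1, a partner of NOXA whose level hardly differed, stands beside it. Both are the last 110 bases before the start of the gene, 5′ to 3′ on the plus strand, from RefSeq's rat assembly GRCr8, which is not the assembly used for mapping (chr18:62255860-62255969 for Pmaip1 and chr2:185908058-185908167 for Mcl1). Capitals mark matches to the motifs described next.
Pmaip1: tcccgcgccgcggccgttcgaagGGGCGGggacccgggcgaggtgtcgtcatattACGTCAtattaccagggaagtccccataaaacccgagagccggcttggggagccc
Mcl1: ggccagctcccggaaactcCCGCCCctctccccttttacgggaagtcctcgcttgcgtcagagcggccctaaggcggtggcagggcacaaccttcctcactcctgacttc

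In windows from 250 bases before to 50 after the start, 4 motifs were searched on both strands. These were the half-site of the cAMP response element bound by ATF and CREB factors (TGACGT), the composite site of C/EBP and ATF factors (TGATGNAA), the AP-1 site (TGANTCA) and the GC box (GGGCGG), which share no overlapping match in the members. RefSeq gave 11 windows for 8 of the 10 members, 4 of them for Bcl2l1. Bbc3 and Bax had no window and were not searched. Among the 8 members searched, Pmaip1 was the one with a TGACGT match, which lies on the minus strand and reads ACGTCA at -55. Of all 33469 windows, 7.94% hold this motif. The TGATGNAA motif, present in 3.98% of all windows, was found for Bcl2 (TGATGTAA at -244), Bcl2a1 (TGATGCAA at -107) and in 3 of the 4 windows of Bcl2l1, which overlap in part, so that the matches at -189 and -54 are the same site in 2 windows. A GC box occurred in the windows of Pmaip1, Mcl1, Bcl2l11, Bid, Bak1 and in 1 of the 4 of Bcl2l1, beside 33.1% of all windows. A TGANTCA match was found for Bcl2a1 (TGAATCA at -231), beside 7.33% of all windows. These matches are letters in a window and not measured binding.

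**Figure D1:**
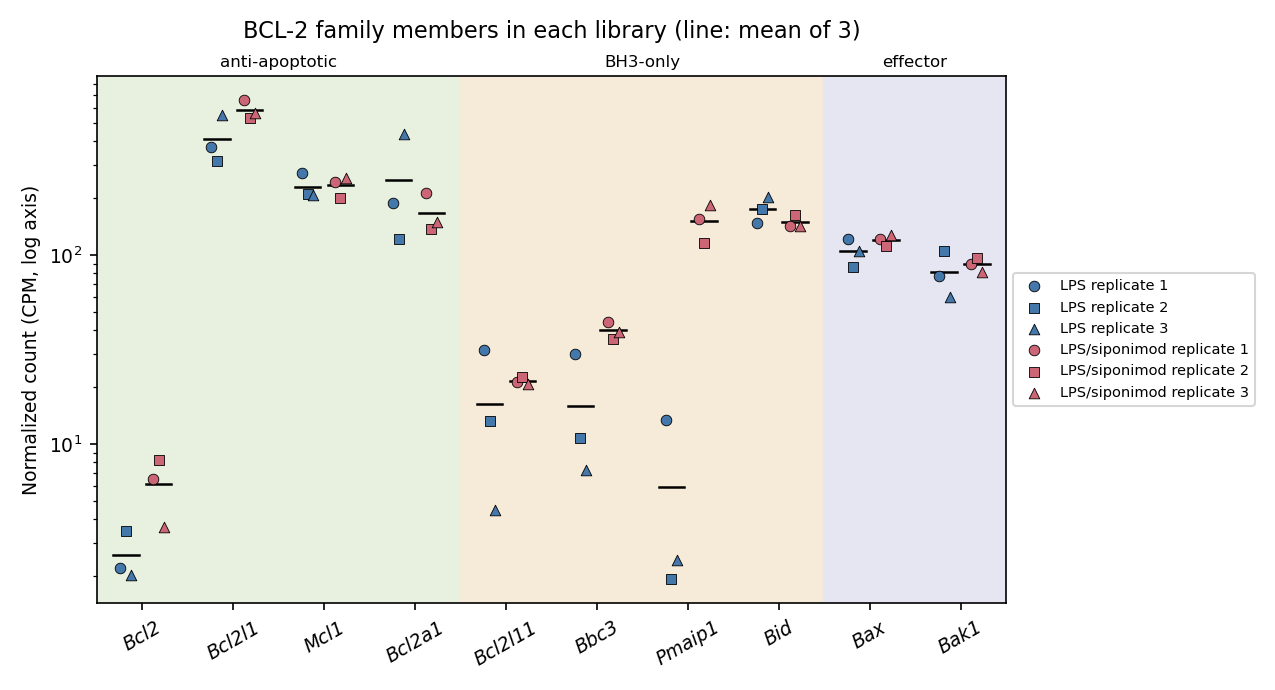
Normalized counts (CPM, log axis) of the 10 members in each library, with LPS in blue, LPS/siponimod in red, a marker shape for each replicate number and a line at the mean of 3. For Pmaip1 the LPS/siponimod libraries lie between 115.2 and 185 CPM and the LPS libraries between 1.92 and 13.3 CPM, whereas the 2 groups overlap for Mcl1, Bax, Bak1 and Bid.

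The remaining BH3-only genes did not pass the test. Bbc3, whose product PUMA is raised by CHOP, among others, had 29.8, 10.8 and 7.29 CPM in LPS replicates 1, 2 and 3 and 44.3, 36.1 and 39.2 CPM in LPS/siponimod replicates 1, 2 and 3. The groups did not overlap, and LPS replicate 1 was again the highest of its group. The log2 FC was 1.32 (standard error 0.51, 95% interval from 0.08 to 2.56, quasi-likelihood adjusted p = 0.0987). Same-numbered libraries deviated together, and with the replicate number as a block the log2 FC was 1.57 and passed (adjusted p = 0.031), and it passed without LPS replicate 1 (log2 FC 2.15, adjusted p = 0.0238) but not without LPS replicate 3 (log2 FC 0.98, adjusted p = 0.128). Bcl2l11 encodes BIM, which is raised by FOXO factors and on growth factor loss. Its level was 31.3, 13.3 and 4.50 CPM in LPS replicates 1, 2 and 3, a 6.96-fold spread that 5.2% of all genes tested exceeded, but 21.2, 22.7 and 20.9 CPM in the LPS/siponimod libraries, which lay inside the range of the LPS libraries. Its log2 FC was 0.40 (standard error 0.62, 95% interval from -1.10 to 1.90, quasi-likelihood adjusted p = 0.652), and without LPS replicate 3 it was -0.045. Bid links death receptors to mitochondria once caspase-8 has cleaved it. Bid had 149, 175 and 204 CPM in LPS replicates 1 to 3, compared with 143, 163 and 142 CPM in LPS/siponimod replicates 1 to 3, with overlapping groups (log2 FC -0.24, 95% interval from -0.62 to 0.14, quasi-likelihood adjusted p = 0.29).

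Among the anti-apoptotic genes, Bcl2 had the largest positive log2 FC and the lowest counts. It held 82, 134 and 75 counts in LPS replicates 1, 2 and 3 and 302, 369 and 149 in LPS/siponimod replicates 1, 2 and 3 (2.57 ± 0.793 against 6.13 ± 2.34 CPM, SD, n = 3 each). The groups did not overlap, although LPS/siponimod replicate 3 at 3.63 CPM came close to LPS replicate 2 at 3.48 CPM. The log2 FC of 1.25 (standard error 0.38, 95% interval from 0.33 to 2.18) had an adjusted p of 0.0534 by the quasi-likelihood test and of 0.0153 with the replicate block. Bcl2l1, which encodes BCL-XL, had 374, 316 and 549 CPM in LPS replicates 1 to 3, compared with 664, 529 and 566 CPM in LPS/siponimod replicates 1 to 3. LPS replicate 3 lay above LPS/siponimod replicate 2, so that the groups overlapped. Its log2 FC was 0.51 (standard error 0.24, 95% interval from -0.08 to 1.09, quasi-likelihood adjusted p = 0.157), and without LPS replicate 3 it was 0.77 and passed (adjusted p = 0.0297).

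Mcl1 encodes a short-lived protein. It had 273, 211 and 208 CPM in LPS replicates 1 to 3, compared with 245, 200 and 256 CPM in LPS/siponimod replicates 1 to 3 (230 ± 36.5 against 234 ± 29.7 CPM, SD, n = 3 each). The log2 FC was 0.02, its 95% interval ran from -0.40 to 0.44, and its quasi-likelihood adjusted p was 0.941. A change of 1.5-fold, which is 0.585 on the log2 scale, lies outside this interval. Bcl2a1 held 189, 121 and 435 CPM in LPS replicates 1, 2 and 3 and 214, 138 and 149 CPM in LPS/siponimod replicates 1, 2 and 3. Its highest value was that of LPS replicate 3, and the other 5 libraries lay between 121 and 214 CPM. The log2 FC of -0.57 (standard error 0.48, 95% interval from -1.73 to 0.58, quasi-likelihood adjusted p = 0.394) became 0.11 without LPS replicate 3 (adjusted p = 0.775).

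Of the effectors, which form the pore in the outer membrane, Bax had 121, 86.9 and 105 CPM in LPS replicates 1 to 3, compared with 121, 112 and 128 CPM in LPS/siponimod replicates 1 to 3, and Bak1 had 77.8, 105.6 and 60.2 CPM against 90.1, 96.0 and 81.3 CPM. The groups overlapped for both genes. The log2 FC was 0.20 for Bax (standard error 0.15, 95% interval from -0.17 to 0.58, quasi-likelihood adjusted p = 0.352). For Bak1 it was 0.13 (standard error 0.22, 95% interval from -0.39 to 0.66, quasi-likelihood adjusted p = 0.664). An increase of 1.5-fold lies just outside the interval of Bax and inside that of Bak1.

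By class, 1 of the 4 BH3-only genes was called higher and none of the 4 anti-apoptotic genes or the 2 effectors was, where a call needed a change of at least 1.5-fold beside an adjusted p not above 0.05. Of all genes tested, 13.6% were called higher and 11.7% lower by the same rule, so that 1 of 10 members is no more than the background share. No member was called lower or had all LPS/siponimod libraries below all LPS libraries, which 24% of all genes did, and by the quasi-likelihood test 0 members with a negative log2 FC had an unadjusted p under 0.05. Other tests called Pmaip1, Bcl2 and Bbc3 higher, namely DESeq2 (16.5% of all genes called higher, 16.1% lower), edgeR's likelihood ratio test (15.3% and 14.5%) and the fit with the replicate block (17.7% and 16.4%), while limma-voom called Pmaip1 and Bbc3 (13.8% and 12%), and none of them called a member lower. In the quasi-likelihood test, the unadjusted p also lay under 0.05 for Bcl2 (0.0159) and Bbc3 (0.0403). The groups did not overlap, with all LPS/siponimod libraries above all LPS libraries, for 3 of the 10 members (Bcl2, Bbc3 and Pmaip1), which is near the 25.3% of all genes tested. The median log2 FC was 0.26 for anti-apoptotic, 0.86 for BH3-only and 0.17 for effector members, against -0.021 for all genes tested. Without LPS replicate 3 the medians were 0.44, 0.47 and 0.086, in the same order, and without LPS replicate 1 the BH3-only median was 1.72. The difference in mean log2 CPM over the members of a class, to which Pmaip1 adds most among the BH3-only genes, was 0.34, 1.84 and 0.19 for anti-apoptotic, BH3-only and effector members, and 0.47, 1.49 and 0.099 without LPS replicate 3. A difference between classes was not tested. Within libraries numbered 1, 2 and 3 the median difference was 0.50, 0.47 and 0.17 for anti-apoptotic members, 0.26, 1.25 and 2.31 for BH3-only members and 0.10, 0.11 and 0.36 for effectors. The spread among replicates was narrower with LPS/siponimod than with LPS for 9 of the 10 members, all except Bcl2, beside 61% of all genes tested. Whether these shares differ was not tested.

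**Figure D2:**
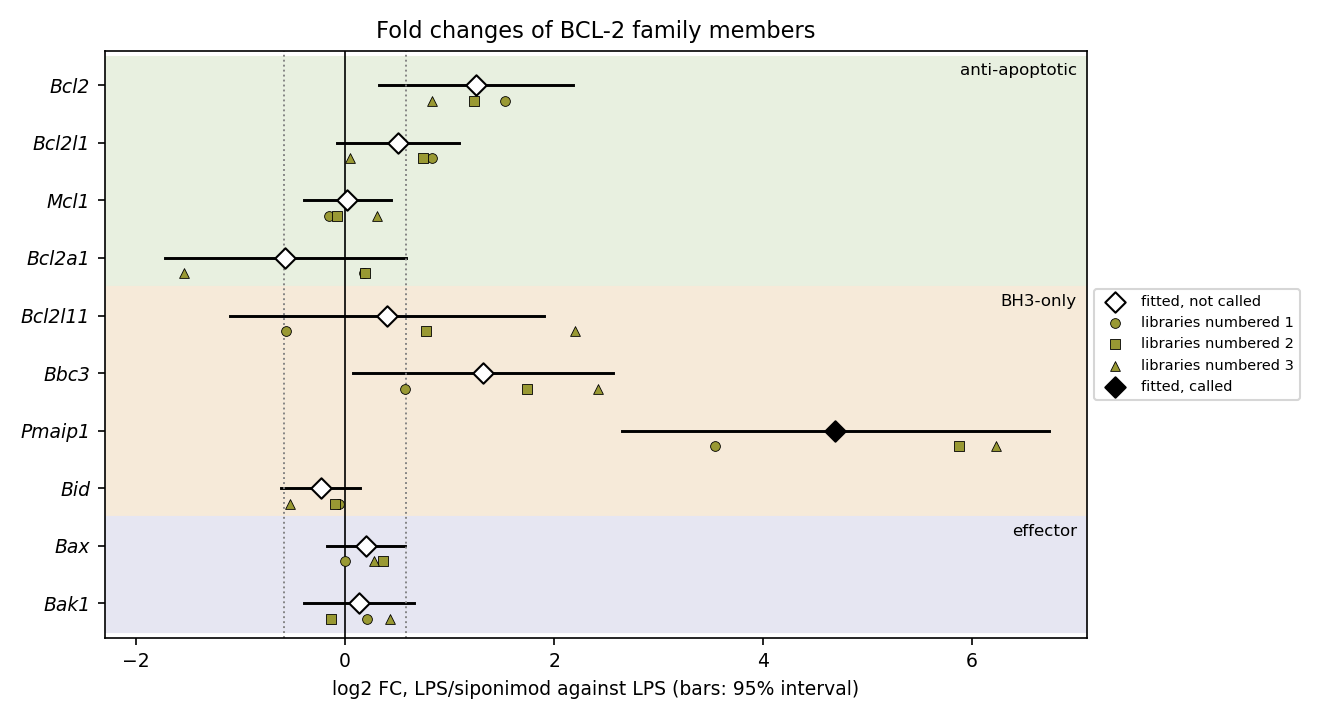
Log2 FC of each member, LPS/siponimod against LPS, as the fitted value (diamond) with its 95% interval (bar) and as the difference within libraries of the same number (olive markers), with dotted lines at a 1.5-fold change. The interval of Pmaip1 runs from 2.64 to 6.73, that of Mcl1 from -0.40 to 0.44, and for Bcl2l11 the difference is below 0 in libraries numbered 1 and above 0 in those numbered 2 and 3.

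Ratios of counts within a library do not depend on how libraries are scaled, and 5 ratios of a pro-apoptotic to an anti-apoptotic member were compared. With 3 libraries against 3 the exact permutation test cannot go below p = 0.10. The log2 ratio of Pmaip1 to Mcl1 was -4.35, -6.77 and -6.41 in LPS replicates 1 to 3, compared with -0.65, -0.797 and -0.471 in LPS/siponimod replicates 1 to 3, a mean difference of 5.21. That of Pmaip1 to Bcl2a1 was -3.82, -5.97 and -7.48 in LPS replicates 1 to 3, compared with -0.456, -0.261 and 0.307 in LPS/siponimod replicates 1 to 3, a mean difference of 5.62. In both, the groups did not overlap and the test gave the smallest p it allows (two-sided exact permutation test, p = 0.1, 0.25 after adjustment over the 5 ratios). The ratio of Bax to Bcl2, often read as a balance of death and survival, went the other way, with 5.37 ± 0.633 with LPS and 4.37 ± 0.701 with LPS/siponimod on the log2 scale (SD, n = 3 each), but its groups overlapped (exact permutation p = 0.2, adjusted 0.333). It was lower in all 3 same-numbered pairs, by differences of -1.55, -0.884 and -0.564, for which a paired exact permutation test cannot give less than the p = 0.25 it gave. Those of Bax to Bcl2l1 (difference -0.325, exact permutation p = 0.3) and of Bcl2l11 to Mcl1 (difference 0.783, exact permutation p = 0.5) also overlapped. Without LPS replicate 3 the difference of Bcl2l11 to Mcl1 was 0.126 and that of Pmaip1 to Bcl2a1 4.76, and without LPS replicate 1 they were 1.33 and 6.59, with 5.95 for Pmaip1 to Mcl1. The difference of Bax to Bcl2l1 was -0.539 without LPS replicate 3 and -0.159 without LPS replicate 1.

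**Figure D3:**
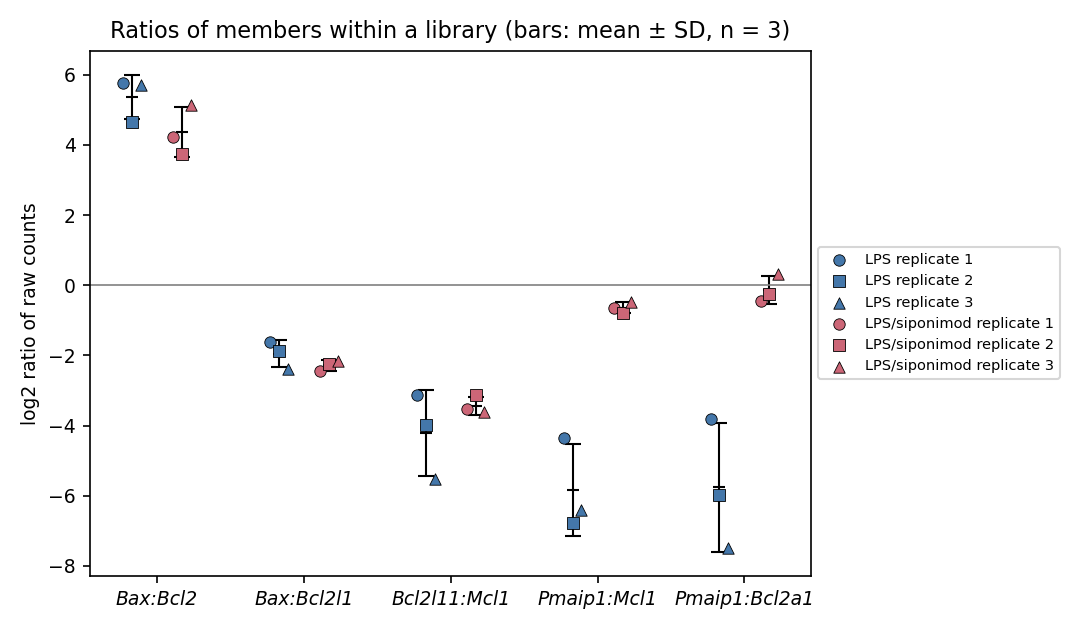
Log2 ratio of raw counts of 2 members within each library, with bars for mean ± SD of 3 libraries and a marker shape for each replicate number. Both ratios with Pmaip1 lie higher in every LPS/siponimod library than in any LPS library, whereas the groups overlap for Bax:Bcl2, Bax:Bcl2l1 and Bcl2l11:Mcl1.

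The genes that surround the family were read from lists by known role. Of 9 tested genes that are known to induce BH3-only genes, 3 were called higher and none lower, with a median log2 FC of 0.63, beside 13.6% called higher of all genes tested. They were Ddit3, which encodes CHOP (32.2 ± 8.17 against 277 ± 57.9 CPM, SD, n = 3 each; log2 FC 3.11, quasi-likelihood adjusted p = 0.0036), Atf4 (log2 FC 2.44) and Jun (log2 FC 1.83), and each was called in all 6 fits that left out 1 library. The FOXO genes were not called by the quasi-likelihood test. Foxo3 had a log2 FC of 0.63 and Foxo4 of 1.13 (quasi-likelihood adjusted p = 0.123 and 0.0747), with non-overlapping groups in both, and Foxo1 had 0.031. With the replicate block Foxo3 and Foxo4 passed (log2 FC 0.68 and 1.25, adjusted p = 0.0351 and 0.0184), and Foxo4 also passed with DESeq2, with the likelihood ratio test and with limma-voom, while neither passed without LPS replicate 3. Tp73 (-0.86) and the kinase genes Mapk8 (-0.014) and Mapk9 (-0.13) were not called either. Tp73 had 7, 3 and 111 counts in LPS replicates 1 to 3, compared with 12, 24 and 41 in LPS/siponimod replicates 1 to 3. Its direction turned without LPS replicate 3 (log2 FC 2.15, quasi-likelihood adjusted p = 0.0925). It also turned with limma-voom (log2 FC 0.47) and with the replicate block (0.14), again without a call.

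Of 10 tested genes of growth arrest and the stress response, 1 was called higher and 1 lower, near the background of 13.6% and 11.7%, with a median log2 FC of -0.028. Gadd45a, a stress gene that ATF4 also raises, went from 5.64 ± 1.95 to 179 ± 84.2 CPM (log2 FC 4.99, quasi-likelihood adjusted p = 0.00457). Zmat3, which encodes an RNA-binding protein, fell (log2 FC -0.76, quasi-likelihood adjusted p = 0.0134) and was called in 3 of the 6 fits that left out 1 library. The cell cycle inhibitor Cdkn1a and the ubiquitin ligase gene Mdm2 were not called, with log2 FCs of -0.97 and 0.38, nor were Phlda3 (-2.07) and Sesn1 (-1.18) by the quasi-likelihood test. DESeq2, the likelihood ratio test and the fit without LPS replicate 3 called Cdkn1a, Phlda3 and Sesn1 lower, with adjusted p-values of 0.0283, 0.00555 and 0.0177 by DESeq2.

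Among 11 tested further relatives of the family, 1 was called higher and 1 lower, no more than the 13.6% and 11.7% of all genes, with a median log2 FC of -0.13. Bcl2l13, an outer membrane protein that takes part in the removal of mitochondria, rose from a mean of 48.4 ± 6.52 CPM to one of 124 ± 10.2 CPM (SD over 3 libraries; log2 FC 1.36, quasi-likelihood adjusted p = 0.00595). Bad, a BH3-only gene outside the 10 members that is controlled by phosphorylation, fell from 37.4 ± 4.52 to 21.4 ± 0.484 CPM (log2 FC -0.80, quasi-likelihood adjusted p = 0.0107), and was called in 3 of the 6 fits that left out 1 library. Bmf, another BH3-only gene, was, like Bcl2l11, lowest of the LPS libraries in replicate 3, with 1686, 1267 and 103 counts in replicates 1, 2 and 3 against 1632, 2762 and 818 with LPS/siponimod (log2 FC 0.53, quasi-likelihood adjusted p = 0.686). Without LPS replicate 3 its log2 FC was -0.0084. The mitophagy receptors Bnip3 and Bnip3l had log2 FCs of 0.57 and 0.085 and were not called, nor were Bcl2l2 (0.17), Bnip1 (-0.46) and Bcl2l12 (-0.54), but Bnip3 passed with the replicate block (log2 FC 0.61, adjusted p = 0.0218). Bcl2l10, Bik, Bok and Bcl2l15 did not pass the filter. Their counts were at most 9 in any library except for Bok, which had 58 in LPS replicate 3 and 81 in LPS/siponimod replicate 3.

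Downstream of the pore, 11 genes of the apoptosome and the caspases were tested, and 1 was called lower and none higher (median log2 FC -0.12), where 11.7% and 13.6% of all genes were. Apaf1, the scaffold that cytochrome c assembles into the apoptosome, fell from a mean of 108 ± 13.0 CPM to one of 59.6 ± 15.9 CPM (SD over 3 libraries; log2 FC -0.86, quasi-likelihood adjusted p = 0.0313), and it was called in 2 of the 6 fits that left out 1 library. Casp9, which the apoptosome activates, had a log2 FC of -0.42, and Casp2 one of -0.76 (quasi-likelihood adjusted p = 0.0857 and 0.108). Without LPS replicate 3 Casp2 passed (log2 FC -1.03, adjusted p = 0.016). Aifm1 (0.47), Casp6 (0.45) and Casp8 (0.12) were not called. Of 6 tested inhibitors of caspases, 1 was called higher and none lower, beside 13.6% and 11.7% of all genes tested. The gene called was Birc2 (cIAP1). Its counts were 2552, 1780 and 1111 in LPS replicates 1 to 3, compared with 22816, 6402 and 7035 in LPS/siponimod replicates 1 to 3 (log2 FC 2.48, quasi-likelihood adjusted p = 0.0261), LPS/siponimod replicate 1 being by far the highest, and it was called in 2 of the 6 fits that left out 1 library. Xiap (log2 FC 0.049), Birc3 (0.46) and Cflar (0.96), which blocks caspase-8, were not called, and Cflar passed with the replicate block (log2 FC 1.16, adjusted p = 0.0479) and without LPS replicate 3 (log2 FC 1.68, adjusted p = 0.0108). Birc5 (-0.71) and Birc6 (-0.15) were not called.

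**Figure D4:**
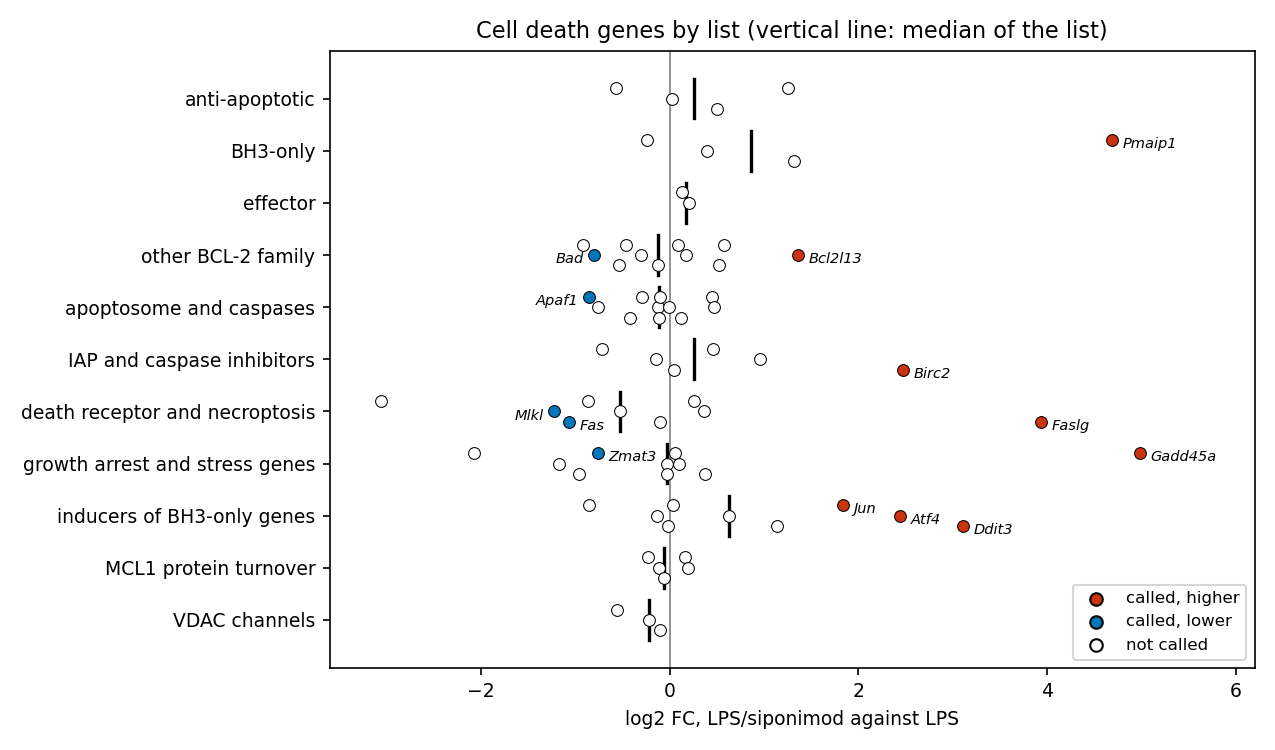
Log2 FC, LPS/siponimod against LPS, of the tested genes of each list, with red for genes called higher, blue for genes called lower, white for genes not called and a vertical line at the median of a list. Across the 8 surrounding lists, 7 of 64 tested genes were called higher and 5 lower, beside 13.6% and 11.7% of all genes tested.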

How the data were processed

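Libraries were made with mRNA capture from total RNA of 3 replicates per condition. Reads were trimmed by the authors and mapped to the rat genome (mRatBN7.2 and bcl2fastq 2.20.0.422 in the submitters' processing notes) in the CLC Genomics Workbench, and the deposited values are total read counts per gene and library, without normalization. How reads that match several genes and strand were handled is not given in the sources used here, which leaves counts of genes that overlap or have close copies uncertain. A row without a name, present in 1 table, held 0 counts and was left out.

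Counts were normalized by TMM, filtered with filterByExpr (minimum count 10, minimum total 15) and tested in R 4.3.3 with edgeR 4.0.16 (glmQLFit and glmQLFTest, condition as the only term), with Benjamini-Hochberg adjustment over 11977 genes. The standard error is the size of the log2 FC divided by the square root of F, and differences within same-numbered libraries are of log2 CPM (prior count 2). Ratios of members used counts plus 0.5. The 3 libraries of a condition are stated to be biological replicates, and the study gives n in general as independent experiments, without naming cultures or animals for these libraries. The p-values measure the spread between these libraries. After centring on the group means, same-numbered libraries correlated at 0.42, 0.545 and 0.611 across genes and others at -0.534 to 0.0856, and the replicate number was therefore used as a block in an alternative fit. Further alternatives were RLE normalization, DESeq2 1.42.0, limma-voom (limma 3.58.1), the likelihood ratio test, 2 other filters, each library left out in turn and, chosen after seeing the data, both libraries numbered 3 left out and a paired exact test of the ratios. The procedure was tested on simulated data.

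The members, the lists around them and the motifs were chosen with earlier results of these data known. All members are named, and of the other lists up to 3 genes per direction with the smallest p-values; Foxo1, Foxo3, Foxo4, Bmf, Bnip3l, Cdkn1a, Tradd and Tnfsf10 were chosen outside this rule, after their values were seen; lists of at most 7 genes are named in full where tested. The 3 genes most like Pmaip1 were taken by correlation of log2 CPM. Promoter sequences are from RefSeq (GRCr8). Gene lengths were not used, so that CPM of different genes do not give their relative transcript levels. Where a marker is said to lead a sum, or Bcl2 to have the lowest counts, this refers to counts alone. E2f1, Hrk, Naip6 and Cldn5 were not analysed here, and some genes of the lists are not reported here.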

Additional observations from a re-analysis of the deposited data

How the results depend on the processing

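The log2 FC of Pmaip1 was positive under all 14 alternatives and passed in 12 of them, and it ranged from 4.27 to 6.15 with single libraries left out, the exceptions being the fits without LPS replicate 2 (4.27) and without LPS/siponimod replicate 1 (4.66). The number of members called higher was 3 with DESeq2, with the likelihood ratio test and with the replicate block (Pmaip1, Bcl2 and Bbc3), 2 with limma-voom, 2 without both libraries numbered 3 (an alternative chosen after seeing the data), and from 0 to 2 with single libraries left out. The replicate block changed no other call among the members. No member was called lower under any alternative.

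The direction of 4 members that were not called turned under some alternatives. Mcl1 had between -0.047 and 0.18 with single libraries left out, namely -0.028 without LPS replicate 2, -0.045 without LPS replicate 3, -0.022 without LPS/siponimod replicate 1, and -0.047 without LPS/siponimod replicate 3, and it had -0.12 without both libraries numbered 3. With single libraries left out, Bcl2a1 ranged from -0.88 to 0.11, Bcl2l11 from -0.045 to 1.29 and Bak1 from -0.038 to 0.38, the turned values being those without LPS replicate 3, and without both libraries numbered 3, Bcl2a1 had 0.19 and Bcl2l11 -0.019. The median of the anti-apoptotic members was then 0.49 and that of the BH3-only members also 0.49, and with single libraries left out the BH3-only median ranged from 0.47 (without LPS replicate 3) to 1.72 (without LPS replicate 1). The paired exact test of the ratios, also chosen after seeing the data, gave p-values from 0.25, its smallest, to 0.5. The directions of the 5 ratios were kept with an offset of 2 counts, with single libraries left out and without both libraries numbered 3.

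In the surrounding lists, the number called higher was 11 with the replicate block and 7 without it, and the number called lower, 5 by the main test, was 10 with DESeq2 and with the likelihood ratio test and from 1 to 11 with single libraries left out (1 without LPS/siponimod replicate 1 or 3, and 11 without LPS replicate 3). Over all genes, the number called ranged from 651 without LPS replicate 2 to 3713 without LPS replicate 3, and it was 4074 with the replicate block and 3036 without it. The cause of these differences was not tested.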

Other observations

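The extrinsic route to cell death, which starts at receptors of the TNF family, was read from a further list. Of 9 tested genes, 1 was called higher and 2 lower, with a median log2 FC of -0.53, beside 13.6% and 11.7% of all genes tested. Mlkl, which ruptures the plasma membrane in necroptosis, fell from a mean of 144 ± 12.4 CPM to one of 61.7 ± 6.91 CPM (SD over 3 libraries; log2 FC -1.23, quasi-likelihood adjusted p = 0.00636) and was called in all 6 fits that left out 1 library. Ripk3, the kinase that activates MLKL, had 4020, 5900 and 7108 counts in LPS replicates 1 to 3, compared with 3492, 4753 and 2766 in LPS/siponimod replicates 1 to 3 (log2 FC -0.86, quasi-likelihood adjusted p = 0.0554), and it passed once the replicate number was a block (adjusted p = 0.0449), with DESeq2 (0.013) and with the likelihood ratio test (0.0195), while without LPS replicate 3 its log2 FC was -0.65 (adjusted p = 0.0943). The death receptor gene Fas fell (log2 FC -1.07, quasi-likelihood adjusted p = 0.0291, called in 3 of the 6 fits), whereas its ligand gene Faslg rose from at most 7 counts in an LPS library to 89, 80 and 138 in the LPS/siponimod libraries. Tnfsf10, which encodes TRAIL, had 1770, 1012 and 220 counts in LPS replicates 1 to 3, compared with 130, 276 and 25 in LPS/siponimod replicates 1 to 3, and its groups overlapped (log2 FC -3.06, quasi-likelihood adjusted p = 0.0669). It was lower in each same-numbered pair (-4.07, -2.08 and -3.18 on the log2 scale) and passed with the replicate block (adjusted p = 0.00907), with DESeq2 (0.00245), with the likelihood ratio test (0.00977) and without LPS replicate 3 (0.0316). The adaptor and kinase genes Fadd, Tradd and Ripk1 had log2 FCs of 0.26, -0.53 and 0.36 and were not called by the quasi-likelihood test, though Tradd passed without LPS replicate 3 (log2 FC -0.71, adjusted p = 0.0477).

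Of the genes that act on MCL-1 protein, none of the 5 tested was called by the quasi-likelihood test, by DESeq2 or by limma-voom, where 13.6% of all genes were called higher and 11.7% lower by the first of these, 0 had an unadjusted p under 0.05, and their log2 FCs were -0.23 (Btrc), -0.11 (Usp9x), -0.057 (Fbxw7), 0.16 (Huwe1) and 0.19 (Marchf5). Of the VDAC channels of the outer mitochondrial membrane, Vdac1 had 115.2 ± 11.4 CPM with LPS and 78.0 ± 0.803 CPM with LPS/siponimod (SD over 3 libraries; log2 FC -0.56, quasi-likelihood adjusted p = 0.0202), which missed the 1.5-fold limit, Vdac3 had a log2 FC of -0.22, and Vdac2, to which BAK binds, had a log2 FC of -0.10 (adjusted p = 0.531).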
